A study of Homo sapiens with 12 samples.

Results

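The genes described here code for the transforming growth factor-beta (TGF-beta) and bone morphogenetic protein (BMP) pathways: their ligands, receptors, SMAD proteins, extracellular binding proteins, and a few known targets. The rule that selected them used gene symbols and no measured value, but the set was proposed with earlier results of these data known. The rule took the protein-coding rows for TGFB1 to TGFB3, TGFBR1 to TGFBR3, TGFBI, the BMP and GDF genes, the BMPR and ACVR receptors, the INHB subunits, the SMADs, ID1 to ID4, LTBP1 to LTBP4, FST, FSTL1, FSTL3, NOG, GREM1, SKIL, and SERTAD1. BMP1, which the rule took by its symbol, codes for a procollagen protease and is not counted among the ligands below. It found 62 genes among the 58735 rows of the count table, of which 19951 are protein-coding. The cells were TIGK, a human gingival keratinocyte line immortalized by transfection of the telomerase gene hTERT. All 4 groups carried that genotype and were kept at 48 mM glucose, in an Arg-free SILAC base medium supplemented with insulin, glutamine, lysine, epinephrine, apo-transferrin, TGF-α, pituitary extract, and hydrocortisone. The Arg groups received 500 μM L-arginine (Arg) for 24 or 48 h, and the control groups received none for the same times. RNA sequencing was performed on 3 libraries per group, named A, B, and C, 12 in all. The pituitary extract is not a defined mixture, and a single immortalized line cannot stand for gingival keratinocytes of several donors.

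TGF-beta, the activins, and ligands such as GDF11 bind a pair of type II and type I receptor kinases, which phosphorylate SMAD2 and SMAD3. BMPs and several other GDFs act through related receptors on SMAD1, SMAD5, and SMAD9, and both branches share SMAD4, while SMAD6 and SMAD7 inhibit the receptors as products of negative feedback. In keratinocytes, TGF-beta is known as a brake on proliferation and an inducer of matrix genes, and the ID genes are known as direct targets of the BMP branch.

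Levels of one gene across libraries are given as CPM (counts scaled to library size) scaled with the TMM factors of edgeR, and levels of different genes are set side by side only as RPKM (CPM per kilobase of exonic length). Fold changes are on the log2 scale, with their standard error (SE), and adjusted p-values come from edgeR's quasi-likelihood test over all tested genes. Per the study's methods, A, B, and C were replicates of each treatment in cells grown in wells of culture plates, but no source used here says whether they came from separate passages or days, so the p-values measure the spread between these libraries, which may be technical. The libraries held between 16542243 and 19040964 counts. Control replicate B at 48 h stood apart, with a chi-square per degree of freedom of 20.9 and 23.9 against its 2 fellow replicates, where the other pairs gave 3.66 to 12.6. Mitochondrially encoded genes took 1.55% of its counts against 0.906% and 0.707% in replicates A and C. In the 48 h Arg libraries A, B, and C they took 1.14%, 1.31%, and 1.16%, and the part of these differences in the 48 h results was not tested. All 12 keratinocyte markers exceeded 1 CPM in every library, with a summed level of 44378 to 57286 CPM, while the 4 endothelial, 4 immune, and 3 melanocyte markers did not, and LYZ and TYR had no count. Of the 9 fibroblast markers, COL1A1, DCN, and FAP exceeded 1 CPM in every library, and the sum of the 9 was 38.1 to 57.7 CPM in the 24 h control, 33.0 to 44.7 in 24 h Arg, 88.2 to 104 in the 48 h control, and 75.5 to 102 in 48 h Arg.

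Per kilobase, the most abundant of the 62 genes was TGFBI, a secreted matrix protein known as a TGF-beta target, at a mean of 210.3 RPKM over the 12 libraries. It was followed by the BMP targets ID1 and ID3 at 72.9 and 72.1 RPKM. Among the ligands, TGFB1 and BMP7 led at 22.2 and 15.2 RPKM, whereas TGFB3 and TGFB2 stood at 0.221 and 0.116 RPKM. TGFBR2, the type II receptor of TGF-beta, stood at 14.5 RPKM and its partner TGFBR1 at 8.61. The most abundant receptor SMADs were SMAD3 at 10.7 RPKM, of the TGF-beta branch, and SMAD5 at 9.22, of the BMP branch. The RPKM of SMAD2, 1.26, was computed over a deposited exonic length of 36366 bases, several times that of SMAD3, which lowers the value.

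**Figure D1:**
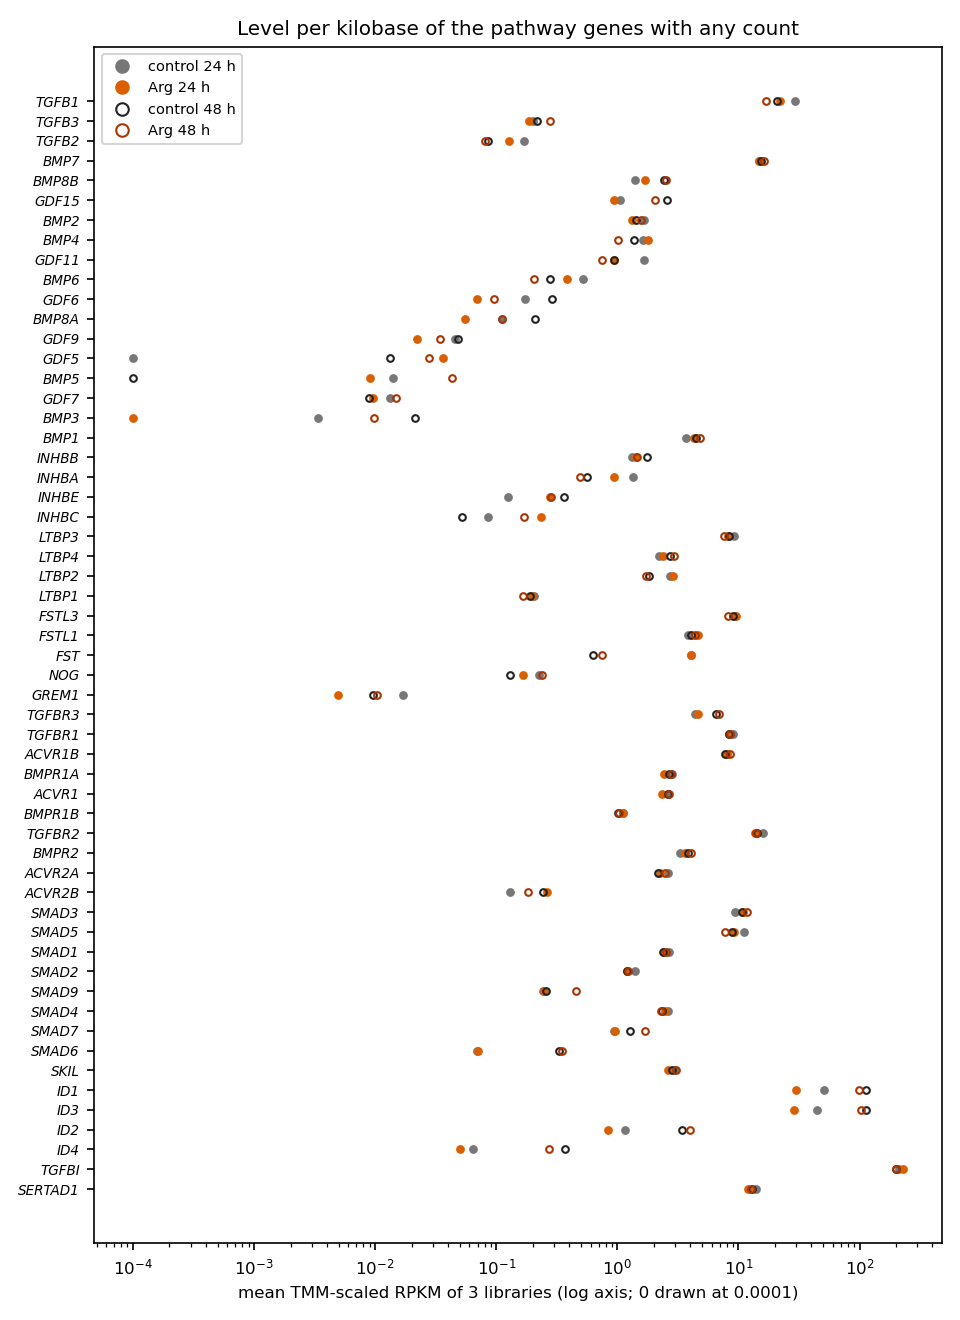
Mean level per kilobase (TMM-scaled RPKM, log axis) of the pathway genes with any count, in order of role, with 1 point per group of 3 libraries. TGFBI lies between 199 and 230.5 RPKM in the 4 groups, and ID1, ID2, ID3, ID4, and SMAD6 have both 48 h points to the right of both 24 h points. Other genes, such as TGFBR3, GDF15, and BMP8B, do so too.

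Not every gene could be tested. edgeR's filter on low counts kept 47 of the 62 in at least 1 comparison and 43 in all 5. The other 15 were BMP3, BMP5, BMP8A, BMP10, BMP15, GDF1, GDF2, GDF3, GDF5, GDF7, GDF9, GDF10, GREM1, INHBC, and NOG, with a highest count of 16 in any library. Among them, BMP10, BMP15, GDF1, GDF2, GDF3, and GDF10 had no count in the 12 libraries. NOG and GREM1, secreted antagonists that bind BMPs, were thus close to absent at this depth.

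The first comparison asked which of these genes differed between Arg-treated and control TIGK cells at 24 h. TGFB1, the main TGF-beta ligand of these cells, GDF11, an activin-like ligand, and the BMP target ID1 were lower with Arg, and ACVR2B, a type II receptor for activins and GDFs, was higher. These were 1 gene higher and 3 lower at an adjusted p under 0.05, among 44 tested, or 2.27% and 6.82%. Of all 14279 genes tested, 2.79% were higher and 3.84% lower. At an unadjusted p under 0.05, 3 genes were higher (ACVR2B, FSTL1, and SMAD3) and 8 lower (GDF11, ID1, ID3, INHBA, SMAD2, SMAD5, TGFB1, and TGFBR2), against 10.8% and 11.9% of all genes. The median log2 fold change of the 44 was −0.10, with 18 above 0 and 26 below, beside 0.0030 and 50.5% above 0 for all genes. Mitochondrially encoded genes took 0.624% to 0.802% of the counts in the 24 h Arg libraries and 1.20% to 1.30% in the control, and the part of this difference in the results was not tested.

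Of the TGF-beta ligands, TGFB1 (ENSG00000105329, chromosome 19, 41301587 to 41353911 in GRCh38) stood at 102, 85.6, and 95.2 CPM in control replicates A, B, and C, and at 66.9, 76.6, and 70.4 CPM with Arg. Every Arg library lay below every control library (log2 fold change −0.41 ± 0.092 (SE), edgeR adjusted p = 0.0129). The call was lost without control replicate A (adjusted p = 0.0922) or without Arg replicate C (0.0657). On the opposite strand, TGFB1 overlaps HNRNPUL1 and CCDC97, and the strand setting of the counting is not given in the sources used here, so its counts are uncertain. These neighbours had log2 fold changes of 0.19 and 0.11, opposite in sign (edgeR adjusted p = 0.171 and 0.533). TGFB2 stood at 0.433, 0.904, and 1.27 CPM in the control and 1.12, 0.524, and 0.322 CPM with Arg. TGFB3 stood at 1.14, 0.9601, and 0.869 CPM against 0.899, 0.699, and 1.13. Both were near 1 CPM, and their groups overlapped. TGFB3 overlaps the opposite-strand gene IFT43, which had 2749 counts in all against 237 for TGFB3, so its level is uncertain for the same reason as that of TGFB1.

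GDF11 (ENSG00000135414, chromosome 12, 55743280 to 55757278), which signals through the activin receptors and SMAD2 and SMAD3, gave 14.9, 11.7, and 16.6 CPM in the control and 7.92, 8.15, and 8.17 CPM with Arg. The Arg libraries differed little among themselves, and all lay below the control (log2 fold change −0.83 ± 0.16 (SE), edgeR adjusted p = 0.00458). It was the one pathway gene called at 24 h whose call held without each library in turn, with adjusted p-values of 0.000485 to 0.0299. INHBA, the subunit of activin A, stood at 11.2, 8.19, and 14.1 CPM in the control and 8.88, 8.04, and 6.23 CPM with Arg (log2 fold change −0.54 ± 0.20 (SE), edgeR adjusted p = 0.118). Its groups overlapped, since control replicate B lay below Arg replicate A. The 7 BMP and GDF ligands tested had log2 fold changes of −0.83 to 0.25, and GDF11 was the only one called. BMP7, the most abundant BMP ligand, had a log2 fold change of −0.020 ± 0.10 (edgeR adjusted p = 0.931).

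Among the receptors, ACVR2B (ENSG00000114739, chromosome 3, 38453851 to 38493142) stood at 2.004, 1.92, and 2.26 CPM in the control and at 4.78, 3.79, and 3.82 CPM with Arg. The Arg libraries were all above the control libraries (log2 fold change 1.00 ± 0.26 (SE), edgeR adjusted p = 0.0277), at a low level of at most 85 counts in a library. The call was lost in 5 of the 6 fits that left out a library, without control replicate A or C or Arg replicate A, B, or C, at adjusted p-values of up to 0.102. TGFBR2 gave 74.0, 69.2, and 82.6 CPM in the control and 67.2, 59.9, and 66.5 CPM with Arg. The groups did not overlap, but the adjusted p was 0.161 by edgeR for a log2 fold change of −0.22 ± 0.093. TGFBR1 stood at 56.7, 66.1, and 62.6 CPM against 60.7, 51.7, and 59.9, with overlapping groups. The co-receptor TGFBR3 (betaglycan), which presents TGF-beta2 to its receptors, stood at 35.2, 45.6, and 34.3 CPM against 37.99, 40.1, and 42.9, also with overlap. The 5 type I receptors tested had log2 fold changes of −0.20 to 0.020, and none was called.

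No SMAD gene was called at 24 h. SMAD5 gave 99.2, 101, and 100.4 CPM in the control and 94.9, 73.9, and 82.4 CPM with Arg, without overlap (log2 fold change −0.26 ± 0.093 (SE), edgeR adjusted p = 0.104). The control libraries of SMAD5 lay within 2 CPM of each other, and most of the spread was among the Arg libraries. SMAD2 gave 53.9, 49.3, and 48.5 CPM against 48.1, 41.1, and 42.8, with a gap of under 1 CPM between the groups (log2 fold change −0.20 ± 0.10 (SE), edgeR adjusted p = 0.218). SMAD3, its partner in the TGF-beta branch, gave 79.4, 96.6, and 77.9 CPM against 91.2, 98.96, and 107, and its log2 fold change had the other sign (log2 fold change 0.23 ± 0.10 (SE), edgeR adjusted p = 0.173). SMAD9 gave 1.35, 1.64, and 1.16 CPM against 0.674, 1.69, and 1.88, a low level with wide overlap. The common SMAD, SMAD4, gave 33.6, 33.5, and 36.7 CPM against 35.1, 30.6, and 31.2, and its groups overlapped as well. Of the inhibitory SMADs, SMAD7 gave 4.605, 4.91, and 4.75 CPM against 3.203, 5.24, and 5.86 (log2 fold change 0.0030). SMAD6, at 0.433, 1.02, and 0.348 CPM and 0.337, 0.291, and 1.18 CPM, did not pass the filter at 24 h. SKIL (SnoN), a corepressor that holds SMAD target genes silent, gave 21.9, 24.1, and 23.5 CPM against 21.3, 17.9, and 21.6, with groups that just missed overlapping and an edgeR adjusted p of 0.344.

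The ID genes code for proteins that bind basic helix-loop-helix factors and keep them off DNA. ID1 (ENSG00000125968) stood at 46.2, 77.9, and 62.3 CPM in the control and 23.8, 32.03, and 54.2 CPM with Arg (log2 fold change −0.76 ± 0.21 (SE), edgeR adjusted p = 0.0413). ID3 (ENSG00000117318) stood at 66.3, 91.5, and 80.7 CPM and 31.7, 46.6, and 75.2 CPM (log2 fold change −0.63 ± 0.20 (SE), edgeR adjusted p = 0.0652). In both genes Arg replicate C lay above control replicate A, so the groups overlapped, and replicates A and B with Arg were the lowest of the 12 libraries. The call of ID1 was lost with DESeq2 (adjusted p = 0.275) and without control replicate B, control replicate C, Arg replicate A, or Arg replicate B, where it lay between 0.0780 and 0.189. ID3 passed without Arg replicate C (adjusted p = 0.000996). ID2 gave 2.38, 3.16, and 2.09 CPM against 1.35, 1.63, and 2.58, with overlap (log2 fold change −0.45 ± 0.33 (SE), edgeR adjusted p = 0.448). ID4 reached at most 0.349 CPM in a 24 h library and was not tested there.

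Among the extracellular binding proteins, FSTL1, a follistatin-like glycoprotein, gave 35.6, 32.02, and 33.2 CPM in the control and 38.6, 41.2, and 42.03 CPM with Arg. All Arg libraries were higher, at an edgeR adjusted p of 0.0977 (log2 fold change 0.27 ± 0.10). FST, the activin antagonist follistatin, had a log2 fold change of −0.0087 ± 0.27 between groups that overlapped widely. The 4 LTBP genes, whose proteins tether latent TGF-beta to the matrix or belong to that fibrillin-like family, had log2 fold changes of −0.15 to 0.11, with none called. TGFBI had a log2 fold change of 0.11 ± 0.083 and SERTAD1, which codes for a coregulator of E2F and of the cyclin D kinase CDK4, one of −0.20 ± 0.12 (edgeR adjusted p = 0.449 and 0.349). SERTAD1 stood at 27.3, 25.8, and 34.8 CPM in the control and 23.9, 25.6, and 27.1 CPM with Arg, where the groups overlapped.

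**Figure D2:**
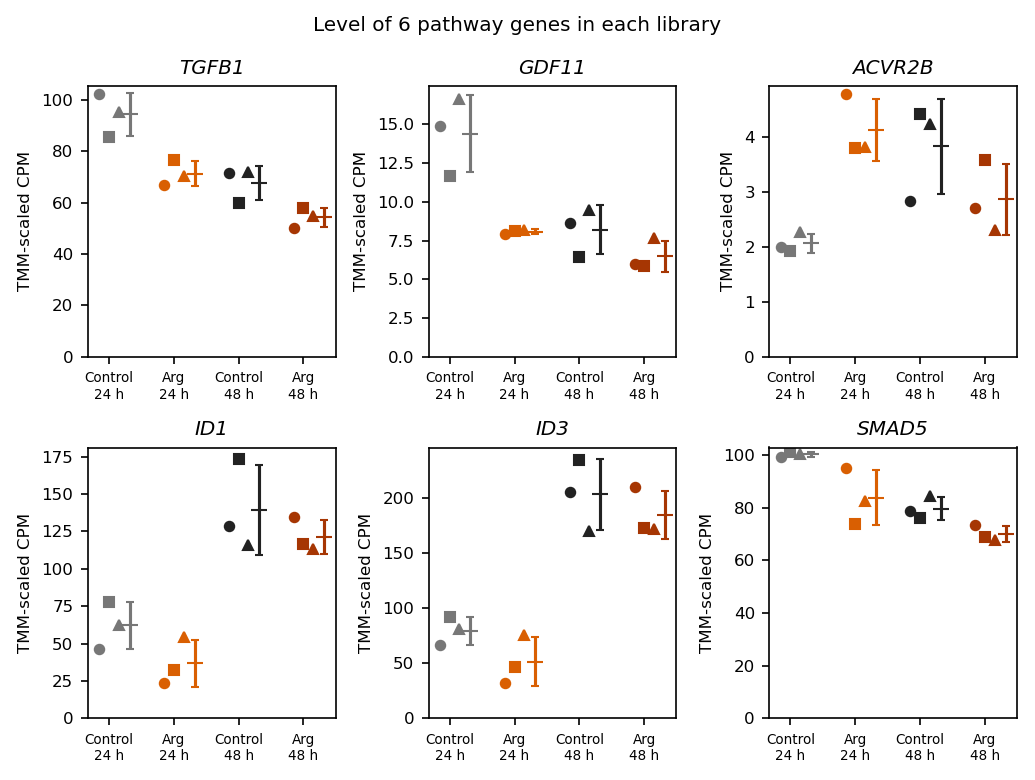
TMM-scaled CPM of TGFB1, GDF11, ACVR2B, ID1, ID3, and SMAD5 in each library (circle, replicate A; square, B; triangle, C), with the group mean and SD of 3 libraries beside them. At 24 h, the Arg libraries of TGFB1, GDF11, and SMAD5 lie below, and those of ACVR2B above, every control library, while those of ID1 and ID3 overlap the control.

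At 48 h, no pathway gene differed between Arg-treated and control cells at an adjusted p under 0.05 with edgeR, among 45 tested, where 0.117% of all 14562 genes did. At an unadjusted p under 0.05, SMAD9 was higher and SMAD5 and TGFB1 were lower, against 5.94% and 7.49% of all genes, and DESeq2 called 0 of them. The median log2 fold change was 0.026, with 24 genes above 0 and 21 below, beside 0.0018 for all genes.

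TGFB1 stood at 71.4, 60.01, and 71.8 CPM in the control and 50.3, 57.8, and 54.7 CPM with Arg at 48 h. As at 24 h, the groups did not overlap (log2 fold change −0.32 ± 0.089 (SE), edgeR adjusted p = 0.176). SMAD5 gave 78.6, 75.99, and 84.3 CPM against 73.4, 68.8, and 67.7, again without overlap (log2 fold change −0.19 ± 0.073 (SE), edgeR adjusted p = 0.295). SMAD9 gave 1.26, 1.45, and 1.72 CPM against 3.08, 1.79, and 2.99 (log2 fold change 0.83 ± 0.33 (SE), edgeR adjusted p = 0.305). The lowest Arg library of SMAD9 was just above the highest control library. GDF11 gave 8.66, 6.43, and 9.49 CPM against 5.998, 5.83, and 7.66. ACVR2B gave 2.83, 4.41, and 4.24 CPM against 2.71, 3.57, and 2.303. Both genes overlapped between the groups at this time.

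ID1 stood at 128, 174, and 116 CPM in the control and 134, 116, and 113 CPM with Arg at 48 h. ID3 stood at 205, 234, and 169.7 CPM and 209, 173, and 171 CPM. In both, control replicate B was the highest library and the other libraries were mixed. ID2 gave 7.13, 10.2, and 5.25 CPM in the control and 10.3, 8.99, and 7.26 CPM with Arg, with overlap. SMAD6 gave 1.63, 4.67, and 2.25 CPM and 4.12, 3.57, and 1.21 CPM, spread widely in both groups. SMAD7 gave 7.19, 6.54, and 5.36 CPM and 9.96, 7.03, and 8.35 CPM, with Arg replicate B inside the range of the control (log2 fold change 0.41 ± 0.19 (SE), edgeR adjusted p = 0.376).

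The receptors of TGF-beta lay close together at 48 h. TGFBR1 gave 52.9, 60.5, and 59.2 CPM in the control and 61.1, 57.4, and 57.9 CPM with Arg. TGFBR2 gave 66.1, 67.4, and 66.4 CPM and 63.6, 66.1, and 66.7 CPM. TGFBR3 gave 54.7, 62.1, and 53.6 CPM and 60.8, 61.3, and 57.1 CPM. The groups of all 3 overlapped, as did those of the SMADs of the TGF-beta branch. SMAD2 gave 44.7, 42.2, and 44.3 CPM in the control and 46.7, 45.7, and 41.8 CPM with Arg. SMAD3 gave 95.6, 110.2, and 88.5 CPM and 106, 111, and 105 CPM. SMAD4 gave 29.7, 29.8, and 31.7 CPM and 30.9, 32.3, and 27.5 CPM. The log2 fold changes of these 6 genes lay between −0.028 for TGFBR2 and 0.13 for SMAD3.

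SERTAD1 gave 28.1, 26.4, and 27.9 CPM in the 48 h control and 26.2, 28.4, and 26.5 CPM with Arg, within 3 CPM over the 6 libraries. SKIL gave 19.5, 23.2, and 23.3 CPM and 22.6, 24.7, and 24.3 CPM. FSTL1 gave 35.1, 39.8, and 31.8 CPM and 36.1, 38.7, and 40.5 CPM. The groups overlapped in each of these, and the edgeR adjusted p-values of the 3 lay between 0.666 for FSTL1 and 0.930 for SERTAD1. INHBA gave 5.25, 4.41, and 4.397 CPM in the control and 3.34, 5.12, and 3.69 CPM with Arg. TGFB3 gave 0.6295, 1.71, and 0.858 CPM and 1.88, 1.43, and 0.806 CPM. TGFB2, at 0.262, 0.259, and 0.804 CPM and 0.417, 0.595, and 0.2303 CPM, was not tested. These 3 ligand genes were all low at 48 h, with overlapping groups.

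Without control replicate B, the library that stood apart, 6 of 47 pathway genes were called at 48 h. BMP7, BMPR2, and SMAD3 were higher and GDF6, SMAD5, and TGFB1 lower (6.38% each way), against 7.76% and 8.17% of the 14854 genes tested in that fit. TGFB1 then had a log2 fold change of −0.40 ± 0.074 (SE, edgeR adjusted p = 0.000611) and SMAD5 one of −0.22 ± 0.070 (adjusted p = 0.0350). SMAD3 had a log2 fold change of 0.22 ± 0.065 (adjusted p = 0.0223). GDF6 did not pass the filter with all 6 libraries and entered this fit, through the 2 control libraries in which it was highest (1.26 and 1.61 CPM). No pathway gene was called at 48 h without any 1 of the other 5 libraries.

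**Figure D3:**
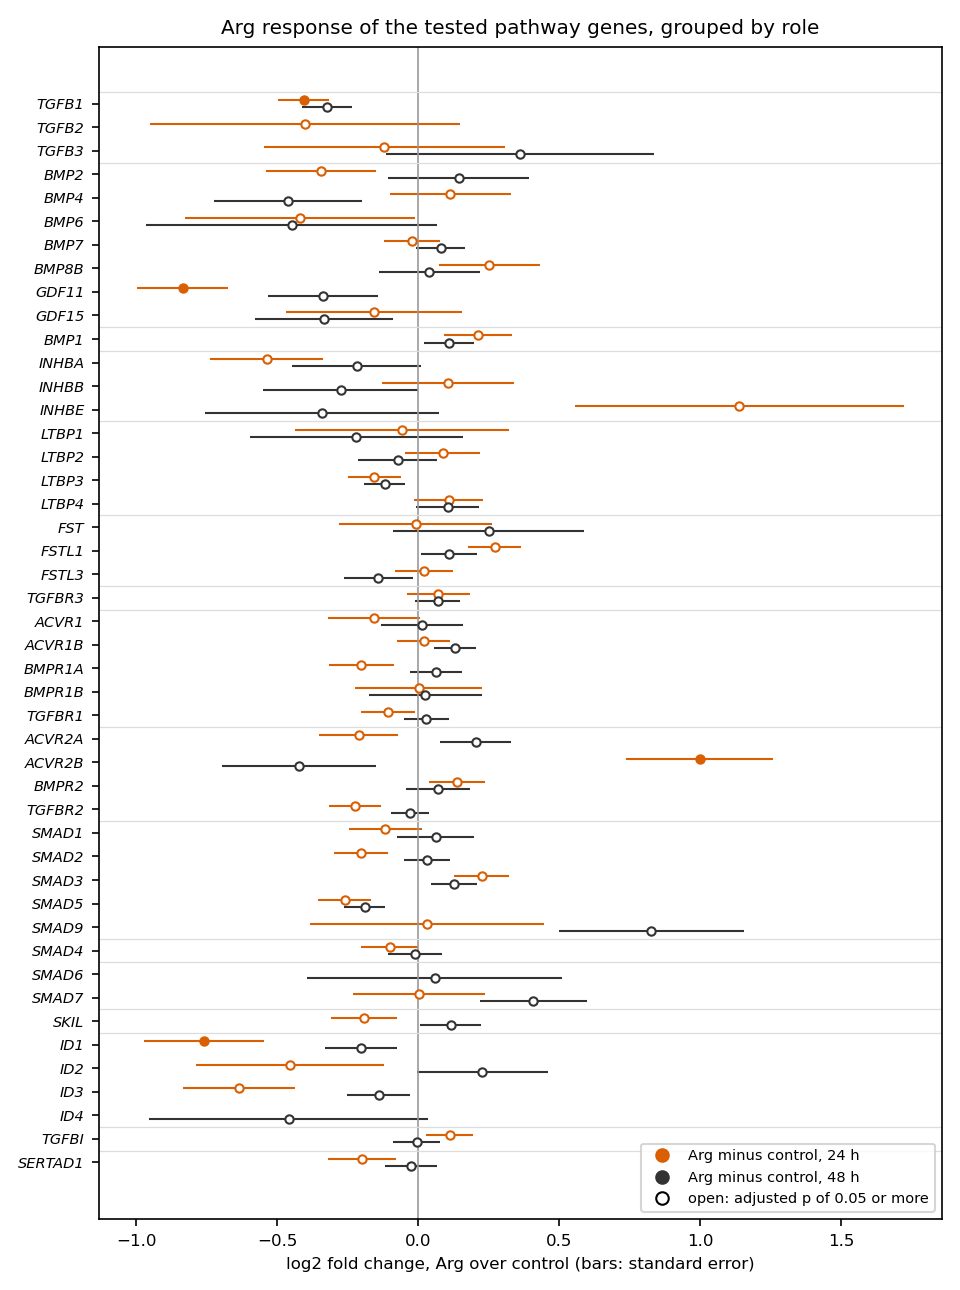
log2 fold change with Arg over control at 24 h (orange) and 48 h (dark) for each tested pathway gene, with its SE as a bar and genes in order of role. Filled points, with an adjusted p under 0.05, are TGFB1, GDF11, ACVR2B, and ID1 at 24 h, and no point at 48 h is filled.

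The difference of the Arg effect between 48 and 24 h was tested as an interaction over all 12 libraries. At an adjusted p under 0.05 with edgeR, 0 of 47 pathway genes passed, where 0.0132% of 15148 genes did. At an unadjusted p under 0.05, ACVR2B and ACVR2A passed, 4.26% of the 47, against 6.87% of all genes. ACVR2B was higher with Arg at 24 h and lower on average at 48 h, and its interaction was −1.42 ± 0.36 on the log2 scale (unadjusted p of the edgeR test 0.000879, adjusted p = 0.321). ACVR2A, a second type II receptor of activins, gave 0.42 ± 0.19 (adjusted p = 0.708) and overlaps the opposite-strand gene ORC4. The interactions of ID1 and ID3 were 0.56 ± 0.30 and 0.50 ± 0.27 (adjusted p = 0.777 for both). These 2 were called in the fit without a filter on low counts, at adjusted p-values of 0.00881 and 0.0195. It was therefore not shown that any of these genes responded to Arg differently at the 2 times.

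The last comparisons set 48 h against 24 h within the control and within the Arg group. From 24 to 48 h, the BMP targets ID1, ID2, and ID3, the inhibitory SMAD6, the co-receptor TGFBR3, GDF15, and BMP8B rose in both the control and the Arg group. FST, INHBA, LTBP2, TGFB1, and SMAD5 fell in both. In the control, 8 of 46 genes tested were higher at 48 h and 6 lower (17.4% and 13%), where 9.90% and 10% of all 14449 genes were. With Arg, 9 of 44 were higher and 7 lower (20.5% and 15.9%), where 14.3% and 14.0% of 14398 genes were. The counts of higher genes in both groups include SMAD6, which passed the filter through its 48 h libraries, where it was higher. Its presence in these counts and among the 12 genes below thus depended on those libraries. The 12 genes called in both groups were 85.7% of those called in the control and 75.0% of those called with Arg, and these 2 comparisons share no library. Over all genes, those called in both were 71.0% of the genes called in the control and 50.3% of those called with Arg. Non-overlap, given for single genes below, was not particular to called genes. SMAD2, SMAD4, and TGFBR2 were not called in the control, yet their 48 h and 24 h libraries did not overlap there. The share of all genes without overlap is not given here. Time after treatment, time since seeding, and day of harvest cannot be told apart. The summed level of the fibroblast markers was also higher at 48 h, and its part in these differences was not tested. In bulk RNA, fewer cells of a kind and less RNA per cell cannot be told apart either.

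ID3 rose from 79.5 ± 12.7 CPM (mean ± SD, n = 3) at 24 h to 203 ± 32.2 CPM at 48 h in the control (log2 fold change 1.36 ± 0.13 (SE), edgeR adjusted p = 0.000363). With Arg, it rose from 51.2 ± 22.1 CPM to 184 ± 21.7 CPM (log2 fold change 1.85 ± 0.18 (SE), edgeR adjusted p = 4.36e-07). ID1 rose by 1.17 ± 0.18 on the log2 scale in the control (edgeR adjusted p = 0.00238) and by 1.72 ± 0.18 with Arg (adjusted p = 7.34e-07). ID2 rose by 1.57 ± 0.28 (adjusted p = 0.00422) and by 2.25 ± 0.25 (adjusted p = 1.66e-06). In all 3 genes every 48 h library was above every 24 h library, and the calls held without each library in turn and in all other alternatives. The larger values with Arg go with the lower 24 h levels of that group, and their difference from the control is the interaction given above, which did not pass the test. ID3 and ID1 varied 7.37-fold and 7.30-fold over the 12 libraries, while the ratio of their CPM stayed between 1.17 and 1.60.

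SMAD6 rose from 0.599 ± 0.364 to 2.85 ± 1.61 CPM (mean ± SD, n = 3) in the control (log2 fold change 2.24 ± 0.51 (SE), edgeR adjusted p = 0.0118) and from 0.604 ± 0.502 to 2.97 ± 1.55 CPM with Arg (log2 fold change 2.27 ± 0.52 (SE), edgeR adjusted p = 0.00271). The spread at 48 h was wide, from 1.21 CPM in Arg replicate C to 4.67 CPM in control replicate B. SMAD6 passed the filter through its 48 h libraries, so that its presence in the test depended on them, and its call in the control was lost without replicate A or C at 24 h (adjusted p = 0.0670 and 0.0644). SMAD7, the other inhibitory SMAD, rose with Arg (log2 fold change 0.83 ± 0.22 (SE), edgeR adjusted p = 0.00731), and gave 0.42 ± 0.20 in the control (adjusted p = 0.148). ID4, which appeared mostly at 48 h and overlaps an antisense gene, stood at 0.108, 0.113, and 0.232 CPM and 0.525, 1.401, and 0.697 CPM in the control at 24 and 48 h and did not pass the filter in either time comparison.

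For ID1, ID2, ID3, and SMAD6, all known as BMP targets or feedback genes, the 250 bases upstream of their RefSeq starts (GRCh38.p14) are shown, 5′ to 3′ on the strand of the gene. The SMAD palindrome GTCTAGAC, the SMAD element CAGACA, the BMP SMAD motif GGCGCC, the AP-1 site TGANTCA, and the cyclic AMP response element TGACGTCA were searched on both strands, and capitals mark a match. The windows are chr20:31605039-31605288 (plus strand) for ID1, chr2:8681806-8682055 (plus) for ID2, chr1:23559502-23559751 (minus) for ID3, and chr15:66701986-66702235 (plus) for SMAD6. The ID2 and ID3 windows lie inside the deposited spans of these genes (8678845 to 8684453 and 23557918 to 23559794), so they are upstream only of the RefSeq starts.
ID1: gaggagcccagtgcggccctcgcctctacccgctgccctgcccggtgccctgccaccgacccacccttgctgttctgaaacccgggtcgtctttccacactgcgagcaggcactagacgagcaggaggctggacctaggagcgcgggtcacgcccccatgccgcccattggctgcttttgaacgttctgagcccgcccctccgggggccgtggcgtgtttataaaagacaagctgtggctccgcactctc
ID2: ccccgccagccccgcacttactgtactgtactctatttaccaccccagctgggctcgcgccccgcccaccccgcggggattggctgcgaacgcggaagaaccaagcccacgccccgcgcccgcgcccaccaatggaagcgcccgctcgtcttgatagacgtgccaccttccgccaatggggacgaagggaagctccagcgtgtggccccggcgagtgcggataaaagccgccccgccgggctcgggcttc
ID3: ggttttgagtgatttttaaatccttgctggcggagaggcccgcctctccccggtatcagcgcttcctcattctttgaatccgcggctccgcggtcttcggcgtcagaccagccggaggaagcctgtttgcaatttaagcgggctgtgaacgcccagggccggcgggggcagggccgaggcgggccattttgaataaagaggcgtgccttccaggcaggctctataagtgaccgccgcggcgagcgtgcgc
SMAD6: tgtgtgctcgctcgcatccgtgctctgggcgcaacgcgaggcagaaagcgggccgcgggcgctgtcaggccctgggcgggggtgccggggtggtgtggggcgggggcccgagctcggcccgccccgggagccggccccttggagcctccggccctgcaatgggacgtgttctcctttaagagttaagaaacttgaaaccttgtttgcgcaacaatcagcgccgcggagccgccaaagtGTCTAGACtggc
The SMAD6 window alone held a match among these 4, a GTCTAGAC that begins 12 bases before the start. Of all 35116 promoter windows of that length, 0.182% held this palindrome, and of the 90 windows of the 55 pathway genes that matched the RefSeq table, 1 did. CAGACA was in 13.6% of all windows and in 13 of the 90, and GGCGCC in 16.4% and in 23 of the 90. TGANTCA was in 6.57% and in 4 of the 90, and TGACGTCA in 1.65% and in 2 of the 90. These are matches of letters and say nothing about binding, and the search did not reach enhancers or sequence further upstream.

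**Figure D4:**
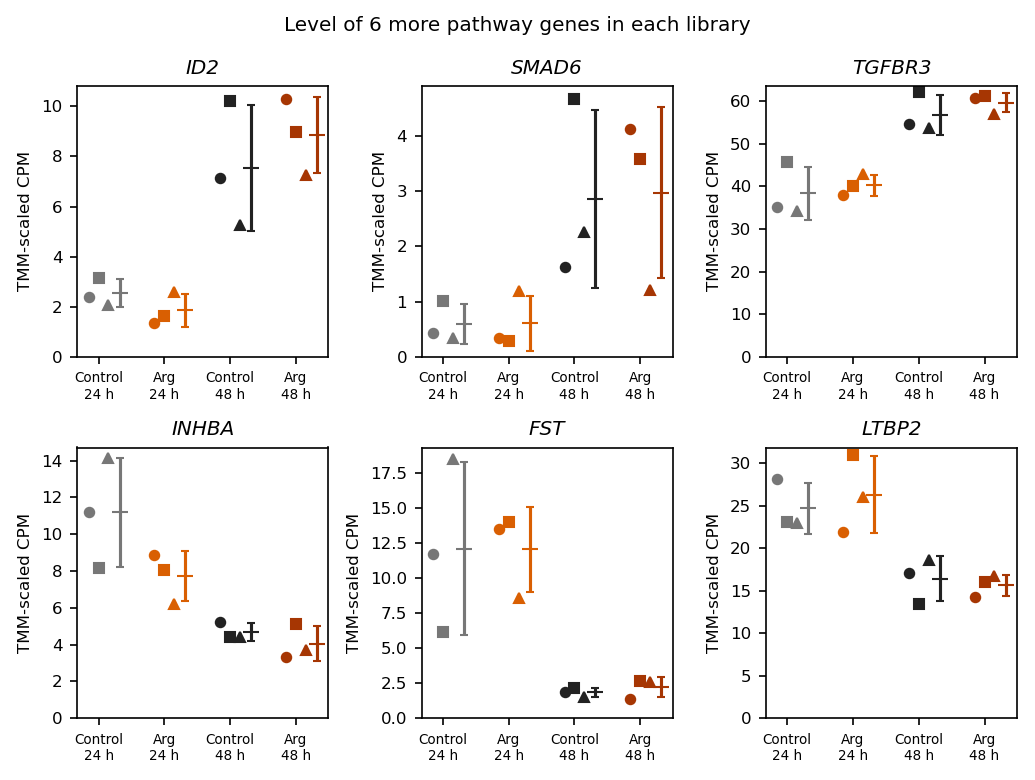
TMM-scaled CPM of ID2, SMAD6, TGFBR3, INHBA, FST, and LTBP2 in each library (circle, replicate A; square, B; triangle, C), with the group mean and SD of 3 libraries. In both groups, ID2, SMAD6, and TGFBR3 are higher and INHBA, FST, and LTBP2 lower in every 48 h library than in every 24 h library of that group.

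Among the other genes that rose, TGFBR3 went from 35.2, 45.6, and 34.3 CPM to 54.7, 62.1, and 53.6 CPM in the control (log2 fold change 0.57 ± 0.12 (SE), edgeR adjusted p = 0.00776) and by 0.57 ± 0.084 with Arg (adjusted p = 4.82e-05). GDF15, a divergent ligand known as a stress-induced cytokine, went from 2.49, 1.92, and 2.14 CPM to 4.88, 6.74, and 4.34 CPM in the control (log2 fold change 1.28 ± 0.26 (SE), edgeR adjusted p = 0.00700) and by 1.11 ± 0.27 with Arg (adjusted p = 0.00496). Its call held without each library in turn in both groups. BMP8B also rose in both groups, by 0.79 and 0.58, but overlaps the opposite-strand gene PPIE, whose counts are several times higher. ACVR2B rose in the control (log2 fold change 0.89 ± 0.27 (SE), edgeR adjusted p = 0.0392), a call that was lost with DESeq2 and without 5 of the 6 libraries (control replicates A, B, and C at 24 h and B and C at 48 h). LTBP4 rose with Arg (log2 fold change 0.32 ± 0.11 (SE), edgeR adjusted p = 0.0351), a call that was lost with DESeq2 and without Arg replicate A or B at 24 h or B or C at 48 h.

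Of the pathway genes tested, FST had the lowest log2 fold change with time in both groups. It stood at 11.7, 6.16, and 18.5 CPM at 24 h and 1.89, 2.18, and 1.501 CPM at 48 h in the control (log2 fold change −2.70 ± 0.36 (SE), edgeR adjusted p = 0.00159), and at 13.5, 14.04, and 8.6 CPM and 1.41, 2.68, and 2.59 CPM with Arg (log2 fold change −2.44 ± 0.24 (SE), edgeR adjusted p = 5.16e-07). The 24 h control libraries differed widely among themselves, yet all lay above the 48 h libraries. INHBA, which codes for the subunit of the activin that follistatin binds, fell in the same libraries, by −1.25 ± 0.21 on the log2 scale in the control and −0.93 ± 0.21 with Arg (edgeR adjusted p = 0.00376 and 0.00261). LTBP2, a matrix protein of the LTBP family, gave −0.59 ± 0.14 and −0.75 ± 0.13 (adjusted p = 0.0158 and 0.000195). TGFB1 gave −0.48 ± 0.10 and −0.39 ± 0.083 (adjusted p = 0.00749 and 0.00148), so that its lowest libraries were those with Arg at 48 h, at 50.3, 57.8, and 54.7 CPM. SMAD5 gave −0.33 ± 0.076 and −0.26 ± 0.088 (adjusted p = 0.0125 and 0.0341).

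The remaining calls fell in 1 group, like those of SMAD7, ACVR2B, and LTBP4 above. None of these genes had an interaction at an edgeR adjusted p under 0.05, so a difference between the groups was not shown. GDF11 was lower at 48 h in the control (log2 fold change −0.81 ± 0.19 (SE), edgeR adjusted p = 0.0119), while with Arg, where it was already low at 24 h, it gave −0.31 ± 0.17 (adjusted p = 0.189). Its interaction was 0.50 ± 0.25 (edgeR adjusted p = 0.742). BMP4 was lower at 48 h with Arg (log2 fold change −0.83 ± 0.24 (SE), edgeR adjusted p = 0.0131), as was TGFBI (log2 fold change −0.21 ± 0.071 (SE), edgeR adjusted p = 0.0307). In the control fits, leaving out replicate A at 24 h ended the calls of TGFB1, LTBP2, SMAD5, GDF11, TGFBR3, BMP8B, SMAD6, and ACVR2B, and leaving out replicate C ended those of GDF11, SMAD5, TGFBR3, BMP8B, SMAD6, and ACVR2B. SMAD5 was also lost without control replicate A at 48 h, at an adjusted p of 0.0504. With Arg, SMAD5 was lost without replicate A or C at 24 h or B or C at 48 h, TGFBI without B or C at either time, BMP4 without A or B at 48 h, and SMAD7 without A at 48 h. The calls of ID1, ID2, ID3, GDF15, FST, and INHBA held in both groups in all of these fits.

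**Figure D5:**
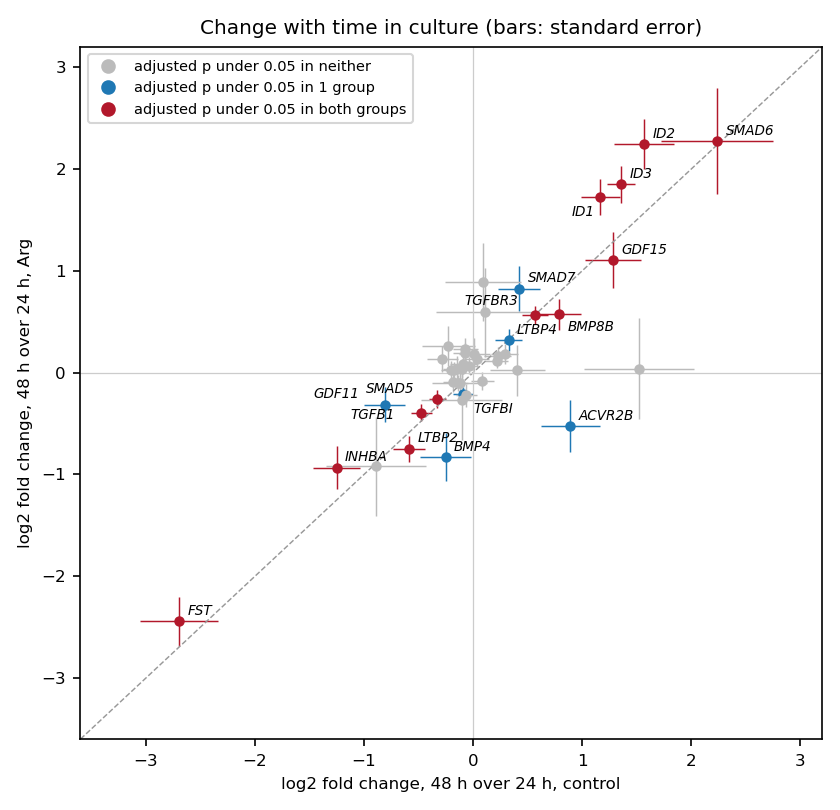
log2 fold change from 24 to 48 h in the control (horizontal) and with Arg (vertical) for each pathway gene tested in both, with SE bars and a dashed line of equal change. The 12 genes called in both groups (red) lie along the line, from FST at the lower left to SMAD6 and ID2 at the upper right, and ACVR2B lies off it, above 0 in the control and below 0 with Arg.

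Other genes of the pathway were described from 4 lists, chosen with earlier results of these data known. Of 32 tested regulators (ubiquitin ligases, corepressors, extracellular modulators, and kinases of the pathway), 0 were higher and 2 lower with Arg at 24 h (6.25% lower, against 3.84% of all genes), with a median log2 fold change of −0.071. These were PMEPA1, a membrane protein that sequesters receptor SMADs and is itself a TGF-beta target, at 7.96, 6.1, and 10.8 CPM in the control and 3.203, 3.67, and 2.79 CPM with Arg (log2 fold change −1.37 ± 0.23 (SE), edgeR adjusted p = 0.00196), and HTRA1, a secreted protease (log2 fold change −0.44 ± 0.10 (SE), edgeR adjusted p = 0.0125). All Arg libraries of PMEPA1 lay below the control, and its call held in every alternative, while that of HTRA1 was lost in a fit of all 12 libraries and without control replicate A or C or Arg replicate C. Of 18 tested genes that process latent TGF-beta, such as integrins, furin-type proteases, and thrombospondin, 0 were called at 24 h (median −0.16). The 4 other SERTA domain genes had no call with Arg at either time.

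Of 33 tested genes known as transcriptional targets of TGF-beta or BMP, 3 were higher and 6 lower with Arg at 24 h (9.09% and 18.2%, against 2.79% and 3.84% of all genes), with a median of −0.10. PMEPA1 is on this list too and counts among the 6. The list was chosen with earlier results of these data known and mixes targets of both branches. Its shares beside those of all genes are therefore a description and no independent test of the pathway. CDKN1C, the cyclin-dependent kinase inhibitor p57, stood at 103, 108, and 98.5 CPM in the control and 29.7, 33.02, and 41.8 CPM with Arg (log2 fold change −1.57 ± 0.11 (SE), edgeR adjusted p = 1.39e-07). The gap was wide, and it was the largest fold change among the called targets. TIMP3, an inhibitor of metalloproteinases, gave −0.54 ± 0.075 on the log2 scale, SNAI2 (Slug) −0.49 ± 0.10, and TNC (tenascin C) −0.83 ± 0.18, with edgeR adjusted p-values of 0.000279, 0.00471, and 0.00879. TAGLN (transgelin), a classical TGF-beta target, had the opposite sign, at 7.64, 7.46, and 6.14 CPM in the control and 16.6, 15.7, and 14.5 CPM with Arg (log2 fold change 1.14 ± 0.15 (SE), edgeR adjusted p = 0.000200). TAGLN overlaps the opposite-strand gene PCSK7, which had 5677 counts in all against 1823 for TAGLN, so its counts are uncertain. ITGA2 was also lower, and FN1 and GADD45B higher. The calls of FN1, GADD45B, and ITGA2 were lost without control replicate A or Arg replicate B, that of GADD45B also without Arg replicate C, and that of TNC without control or Arg replicate C and in a fit of all 12 libraries. At 48 h, 0 genes of the 4 lists were called with Arg, and 0 had a called interaction. CDKN1C then stood at 194, 49.2, and 161 CPM in control replicates A, B, and C and at 50.7, 51.9, and 45.5 CPM with Arg. Control replicate B, the library that stood apart, was thus the only control library within the range of the Arg libraries. TIMP3 gave 378, 272, and 375 CPM against 230, 240, and 261, without overlap. TAGLN gave 3.88, 7.003, and 4.83 CPM against 6.73, 5.42, and 5.18, with overlap.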

How the data were processed

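Total RNA of TIGK cells was extracted and poly(A) RNA was sequenced in 12 libraries, 3 per group. Per the study's methods and the labels, the authors filtered paired-end reads with fastp, used STAR for alignment to GRCh38/hg38, and obtained gene counts from featureCounts. Tool versions, the annotation release, and the strand setting are not given in the sources used here. The deposited values are raw counts per gene, not normalized, beside each gene's position and its exonic length in bases, which the authors deposited in the same table. All sample columns were used, and 0 were left out. The libraries held 16542243 to 19040964 counts, so genes with few counts were imprecise.

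Groups and replicate letters came from the labels. Pairs of groups were compared with edgeR 4.0.16 in R 4.3.3 (TMM, edgeR's filter on low counts, quasi-likelihood test, no block), and Benjamini–Hochberg adjustment covered every gene that was tested. The difference of the Arg effect between times was the interaction term of a 4-group model (12 libraries). SE is the absolute log2 fold change divided by the square root of F. The study itself used DESeq2, which was an alternative here. An exact permutation test of 3 against 3 libraries cannot give a p below 0.1. Scripts were tested on simulated data. The position of all 62 genes was checked against GENCODE v44.

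The same letters did not pair the Arg and control libraries: the deviations of same-lettered Arg and control libraries from their group means correlated across genes at −0.061 to 0.036. Between 24 and 48 h, same-lettered libraries A, B, and C gave 0.038, 0.135, and 0.027 in the control and −0.035, −0.021, and −0.047 with Arg. Differently lettered control libraries of the 2 times gave −0.11 to 0.098. The genes and the 4 lists were chosen with earlier results of these data known. Genes were given library by library where the unadjusted p was under 0.05 with Arg at either time, and always for SERTAD1, SKIL, ID1 to ID3, TGFB1 to TGFB3, TGFBR1 to TGFBR3, SMAD2 to SMAD4, SMAD6, and SMAD7. With time, the rule took at most 6 genes per direction and group by p, and from the lists at most 6 called genes per list and time with Arg. Named in addition, after their values were seen, were BMP8B, ACVR2B, LTBP4, and SMAD7 with time, BMP7, FST, and TGFBI with Arg at 24 h, the genes called at 48 h without control replicate B, ACVR2A, ITGA2, FN1, GADD45B, and the list genes named with time. The 48 h values of CDKN1C, TIMP3, and TAGLN with Arg were likewise added after they were seen. The genes whose promoter windows are shown were also chosen from the results. The alternatives, the full set for Arg against control and fewer for time and the interaction, were DESeq2 1.42.0, edgeR with DESeq2 size factors, scaling by library size alone, no filter, at least 10 counts in every library, a single model of all libraries, a block on the replicate letter, an exonic length correction (lowess span 0.3, prior count 2) with and without the block, and leaving out each library in turn. Promoter windows are from RefSeq, GRCh38.p14, with 55 of the 62 genes matched. Some list genes are not reported here.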

Additional observations from a re-analysis of the deposited data

How the results depend on the processing

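With all libraries kept, the named single-gene results were recomputed under the other tools, scalings, filters, and models, and 584 of these values kept their direction and their side of the threshold, while 7 passed it newly, 7 no longer passed it, and 9 changed sign. With a library left out, 470 kept both, 7 passed newly, 57 no longer passed, and 18 changed sign. Without a filter on low counts, 5 pathway genes were lower with Arg at 24 h (ID3 and INHBA in addition), 1 was lower at 48 h (TGFB1), and 2 had a called interaction (ID1 and ID3), where 2.86%, 1.37%, and 0.295% of all genes in those fits were called. The cause was not tested. The replicate block, which same-lettered Arg and control libraries did not support as a pairing, gave 1 higher and 4 lower at 24 h, with ID3 called (edgeR adjusted p = 0.00227). It gave 0 at 48 h and 0 interactions. With time, it gave 11 higher and 6 lower in the control, and 8 higher and 6 lower with Arg. LTBP4 and TGFBI no longer passed there with Arg (edgeR adjusted p = 0.0505 and 0.0529). Of all genes, the block called 2.65% higher and 3.82% lower at 24 h, and with time 13.6% and 14.4% in the control and 13.4% and 12.9% with Arg. The values that changed sign were all uncalled log2 fold changes. SMAD7 at 24 h became −0.00041 without a filter, −0.030 with the block, and −0.031 with the block and the length correction, and SMAD9 became −0.035 and −0.038 in these last 2 fits. At 48 h, SERTAD1 became 0.033 with the length correction, with or without the block, and SMAD2 −0.11 in both.

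Leaving out each library in turn, 0 to 2 pathway genes were higher and 2 to 3 lower with Arg at 24 h, and 0 to 3 were higher and 0 to 3 lower at 48 h, where 3 each way were called without control replicate B. The shares of all genes moved too, from 0.859% to 4.42% higher and 1.59% to 6.02% lower at 24 h, and up to 7.76% higher and 8.17% lower at 48 h. The interaction gave 0 pathway genes throughout. With time, 4 to 9 were higher and 2 to 6 lower in the control, with 4 higher without control replicate A or C at 24 h and 2 lower without A, and 8 to 9 were higher and 4 to 6 lower with Arg, with 4 without Arg replicate B at 48 h. Of all genes, 2.85% to 10.7% were then higher and 2.74% to 11.6% lower in the control, and 10.4% to 12.4% and 9.31% to 12.9% with Arg. The log2 fold changes that changed sign ranged at 24 h from −0.18 to 0.22 for SMAD7, −0.23 to 0.36 for SMAD9, −0.31 to 0.032 for TGFB3, and −0.0075 to 0.21 for TGFBR3, and at 48 h from −0.0055 to 0.080 for SMAD2, −0.058 to 0.056 for SMAD4, −0.26 to 0.62 for SMAD6, and −0.028 to 0.069 for TGFBR1. A fit that leaves 2 libraries in a group estimates the spread from fewer libraries. At this depth, genes near 1 CPM, such as SMAD6, SMAD9, TGFB2, and TGFB3, rest on few counts in each library.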

Other observations

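Other genes of the pathway, from the lists chosen with earlier results known, also differed between 48 and 24 h. Of 33 tested targets of TGF-beta or BMP, 6 were higher and 8 lower at 48 h in the control (18.2% and 24.2%, against 9.90% and 10% of all genes), and 11 were higher and 9 lower with Arg (33.3% and 27.3%, against 14.3% and 14.0%). DLX3 and DLX5, homeobox genes known as BMP targets, rose in both groups, DLX3 by 1.03 ± 0.17 and 0.71 ± 0.10 on the log2 scale (SE, edgeR adjusted p = 0.00341 and 2.99e-05) and DLX5 by 1.21 ± 0.23 and 1.17 ± 0.19 (adjusted p = 0.00558 and 0.000132). Of the matrix genes, COL7A1, the collagen of anchoring fibrils, rose by 0.92 ± 0.14 and 1.16 ± 0.12 (edgeR adjusted p = 0.00222 and 1.34e-06). TNC had log2 fold changes of −1.71 ± 0.32 and −2.31 ± 0.27 (adjusted p = 0.00487 and 3.17e-06). In each of these 4 genes the 48 h libraries did not overlap the 24 h libraries of the same group. In the control, that was also so for uncalled pathway genes such as SMAD4 and TGFBR2. TAGLN, higher with Arg at 24 h, stood at 16.6, 15.7, and 14.5 CPM at 24 h and 6.73, 5.42, and 5.18 CPM at 48 h with Arg (log2 fold change −1.43 ± 0.15, edgeR adjusted p = 1.41e-06).

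Among 32 tested regulators, 0 were higher and 6 lower in the control (18.8% lower) and 7 higher and 4 lower with Arg (21.9% and 12.5%), beside the same shares of all genes as above. STRAP and FKBP1A, proteins that bind TGF-beta receptors, fell in both groups, STRAP with log2 fold changes of −0.43 ± 0.079 and −0.39 ± 0.073 and FKBP1A with −0.39 ± 0.083 and −0.38 ± 0.067 (edgeR adjusted p-values of 0.00510 and 0.000484, and of 0.00817 and 0.000252). Of the genes that process latent TGF-beta, 2 of 19 were higher and 2 lower in the control (10.5% each way, near the share of all genes), and 7 of 18 were higher and 2 lower with Arg (38.9% and 11.1%). The lists share genes, so these counts are not separate. THBS1 in both groups and ITGB6 with Arg count here and among the targets. PMEPA1 in the control and SMURF1 with Arg count among the regulators and the targets. The membrane protease MMP14 rose by 0.75 ± 0.084 and 0.56 ± 0.095 (edgeR adjusted p = 0.000884 and 0.000194), and the integrin subunit ITGB5 gave −0.91 ± 0.14 and −0.64 ± 0.10 (adjusted p = 0.00261 and 8.99e-05). Of the 4 other SERTA domain genes, SERTAD3 was higher at 48 h in both groups, by 0.60 ± 0.13 and 0.61 ± 0.14 (edgeR adjusted p = 0.0101 and 0.00305), and its call in the control was lost without control replicate A at 24 h (adjusted p = 0.0611).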
